A study of Mus musculus with 18 samples.

Results

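Retinoic acid is made from vitamin A inside cells, is carried by small binding proteins, acts through nuclear receptors and is destroyed by cytochrome P450 enzymes. In the gastrulating mouse embryo it is known as a signal from the mesoderm that patterns the trunk and hindbrain, and degrading enzymes keep it away from other regions. The 6 genes described here cover these steps. Dhrs3 reduces retinaldehyde back to retinol, Aldh1a2 oxidises retinaldehyde to retinoic acid, and Crabp1 and Crabp2 bind retinoic acid in the cytoplasm. Rarg encodes a retinoic acid receptor, and Cyp26a1 encodes an enzyme that breaks retinoic acid down.

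The members were taken by name from the count tables, where all 6 were present among 22997 nuclear genes. The cells came from wild-type C57BL/6 embryos with no treatment, at E6.75 (E for embryonic day) in 6 libraries and at E7.5 in 12 libraries. The E6.75 cells were picked by hand from single dissociated embryos after the extraembryonic part had been cut away, and were processed with CEL-Seq2. The E7.5 cells were sorted by flow cytometry from pools of 1 or 2 litters, whose embryos were cut below the chorion so that extraembryonic mesoderm was kept, and were processed with mCEL-Seq2. Stage, collection and protocol therefore cannot be told apart, and which embryo a cell came from is not given in the labels. Nothing in the labels says that libraries of 1 stage came from different embryos or pools, so p-values measure the spread between libraries, which may be technical in part.

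A cell was used when it held at least 2000 nuclear transcripts, which left 543 of 576 barcodes at E6.75 (85 to 96 in a library) and 429 of 1152 at E7.5 (0 to 71). E7.5 library 5 had 0 such cells and enters no result. The used libraries of E6.75 held 2921862 to 5493791 transcripts and those of E7.5 held 488908 to 2618539, and the median cell held 39348 and 31203 transcripts. Levels are given as CPM, the count of a gene scaled to the same total of nuclear transcripts in every set of cells, where each captured transcript counts once whatever its length. The libraries reuse cell barcodes, with 8 libraries on each of 2 barcode sets and 1 on each of 2 more, so a barcode names a cell only together with its library. Of the marker lists, visceral endoderm genes summed to 120 to 838 CPM at E6.75 and 0 to 331 CPM at E7.5, with all 8 detected at both stages. Epiblast markers fell between 5179 and 6454 CPM at E6.75 and between 1326 and 3640 CPM at E7.5, so both sets of libraries held embryonic cells as labelled. At E7.5 the paraxial mesoderm markers summed to 83.1 to 261 CPM, against 6.61 to 14.6 CPM at E6.75.

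Retinoic acid receptors bind direct repeats of a short hexamer, and the promoter of Cyp26a1 is shown because it was the only one of the members' promoters searched to hold such a repeat with a gap of 5 bases. The hexamer searched was AGGTCA, with A or G allowed at the first base and G or T at the third, on both strands of the 250 bases before each RefSeq start site (build GRCm38.p6). The first line gives 140 bases on the plus strand at chr19:37697658-37697797, from 150 to 11 bases before the start of Cyp26a1, with the hexamers in capitals. The other 2 lines give the repeat alone, read 5′ to 3′ on the strand where it matches, at chr19:37697776-37697792 (minus strand) for Cyp26a1 and, for comparison, at chr14:16575513-16575529 (minus strand) for Rarb, another retinoic acid receptor gene.
Cyp26a1 upstream: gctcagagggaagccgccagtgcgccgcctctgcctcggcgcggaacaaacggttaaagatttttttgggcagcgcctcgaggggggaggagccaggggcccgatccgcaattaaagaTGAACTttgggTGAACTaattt
Cyp26a1 repeat: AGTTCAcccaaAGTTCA
Rarb repeat: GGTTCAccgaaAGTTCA
Such a repeat stood in 29 of 32851 promoter entries (0.0883%). With a gap of 2 bases it stood in 57 entries (0.174%), none of them among the promoters searched of the members or of the lists of retinoid genes below. The promoters searched were 1 of Crabp1, 1 of Aldh1a2, 1 of Cyp26a1, 2 of Rarg and 3 of Dhrs3, and Crabp2 had no entry. A match is a description of letters in these windows and not evidence of binding.

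Between the stages, transcripts of both binding proteins and of the synthesis enzyme Aldh1a2 were higher at E7.5, and those of the receptor Rarg and of Dhrs3 were lower. Sums of counts per library were compared with edgeR's quasi-likelihood test, with Benjamini-Hochberg adjustment over all genes tested and a threshold of 0.05, and fold changes are E7.5 over E6.75. A sum over a library cannot tell more cells with a transcript from more transcripts per cell. Of the 5 members that passed the filter on low counts, 4 were called, in a comparison where 38.8% of 9984 genes were called. Aldh1a2 passed that filter only through E7.5 and so had to differ, so it is described without a test and the count of 4 is read no further.

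Aldh1a2 was nearly absent at E6.75, with 3 transcripts in 543 cells. Library 1_10 held 2 of them, library 2_13 held 1, and the other 4 libraries had none. At E7.5, 805 transcripts were counted, and the lowest, median and highest library stood at 0, 53.6 and 152 CPM. Apart from E7.5 library 9, which had none, every E7.5 library lay above all of E6.75. The pooled level was 464 times that at E6.75, with an exact 95% interval from counting error of 158 to 2257.

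Crabp1 lay between 6.06 and 12.4 CPM at E6.75, with a median of 7.67. At E7.5 it lay between 46.2 and 127 CPM, with a median of 72.1, so the stages did not overlap. The means were 8.63 ± 2.83 (SD, n = 6) and 78.0 ± 24.2 CPM (SD, n = 11), an 8.39-fold difference in the fit (log2 3.07 ± 0.22 SE, edgeR adjusted p = 3.3e-09). Crabp2 ran from 15.3 through a median of 19.2 to 23.6 CPM at E6.75, and from 4.45 through 39.5 to 85.1 CPM at E7.5. Its ranges overlapped, and its means were 19.2 ± 3.39 and 42.0 ± 22.8 CPM (SD). The fitted rise of Crabp2 was 2.18-fold (log2 1.13 ± 0.30 SE, edgeR adjusted p = 0.0048).

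Rarg ran from 35.1 through a median of 42.9 to 58.2 CPM at E6.75 and from 14.3 through 25.3 to 41.0 CPM at E7.5. The E7.5 libraries were the lower ones, with some overlap. Rarg fell by 0.75 ± 0.16 (SE) on the log2 scale (edgeR adjusted p = 0.00098). Dhrs3 was the rarest member at E7.5, with 20 transcripts in 429 cells against 100 in 543 cells at E6.75. Its libraries ran from 2.40 through 3.82 to 5.83 CPM at E6.75 and from 0 through 1.36 to 3.73 CPM at E7.5, and 4 of 11 E7.5 libraries had none. Too few counts kept Dhrs3 out of the main test. With the filter lowered from 10 to 5 counts, a choice made after seeing the data (37.1% of 11424 genes called), it entered only through E6.75, so no test is given for it.

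**Figure D1:**
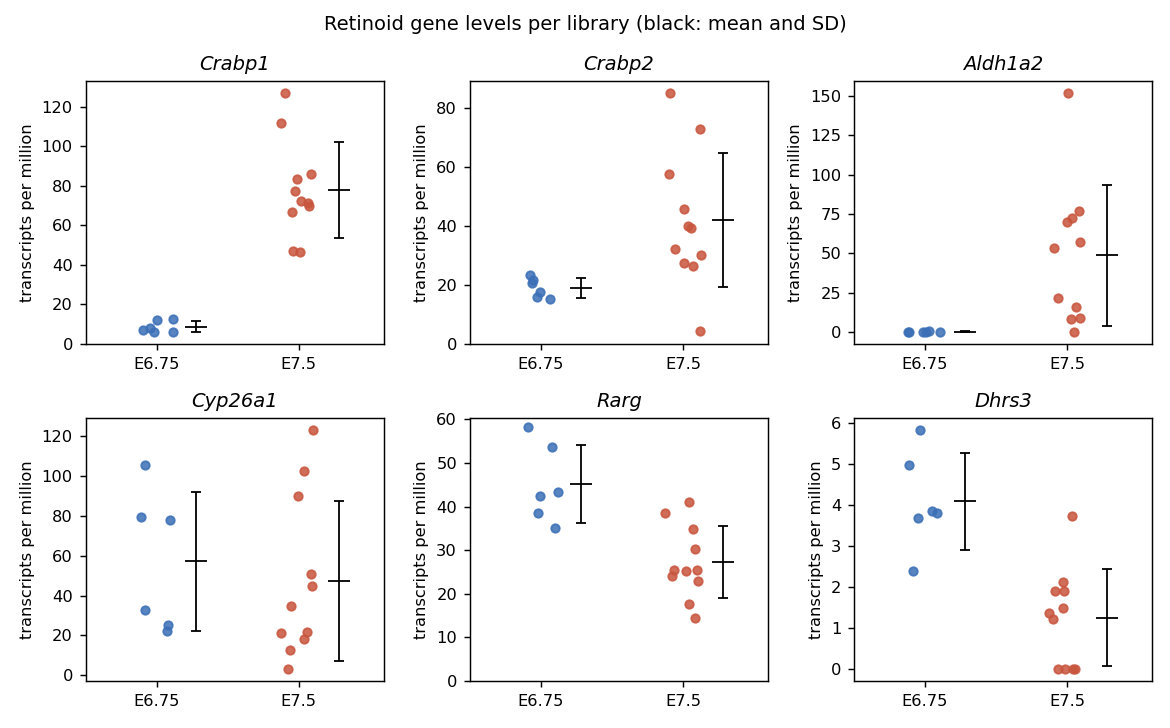
Levels of the 6 retinoid genes in each library at E6.75 (6 libraries) and E7.5 (11 libraries), in CPM on linear axes. Points are libraries, and black marks give the mean and SD; Crabp1 does not overlap between stages, Cyp26a1 overlaps widely, and Aldh1a2 sits at or near 0 in every E6.75 library.

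Cyp26a1 did not pass the test between stages. It ran from 22.2 through a median of 55.4 to 105 CPM at E6.75 and from 3.22 through 34.7 to 123 CPM at E7.5, and the fitted log2 difference was -0.45 ± 0.44 (SE, edgeR adjusted p = 0.45, 95% interval -1.32 to 0.42). The E6.75 value rested on cells with visceral endoderm markers, described below. Without those cells and the few with extraembryonic ectoderm markers, the log2 difference was 0.96 (edgeR adjusted p = 0.26). With E7.5 libraries 9 to 12 left out, it was -1.08 (edgeR adjusted p = 0.036), and only this setting called it.

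The order of the members by mean level differed between the stages. At E6.75 Cyp26a1 and Rarg led with overlapping ranges, and Crabp2, Crabp1, Dhrs3 and Aldh1a2 followed, each with its highest library below the lowest library of the gene before it, although the highest library of Crabp2 lay above the lowest of Cyp26a1. At E7.5 Crabp1 had the highest mean, and Aldh1a2 (48.8 ± 44.7 CPM, SD), Cyp26a1 (47.5 ± 40.1 CPM, SD) and Crabp2 came next with ranges that overlapped each other and that of Crabp1. Rarg lay wholly below Crabp1 but overlapped the 3 genes between them, and Dhrs3 lay below all libraries of Rarg.

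Shares of cells with a transcript were compared after each cell was thinned to 2000 transcripts, which removes differences in depth. Crabp1 was found in 1.47% of E6.75 cells and 12.1% of E7.5 cells, against 26.2% and 49.4% before thinning. Aldh1a2 was found in 0 of 543 thinned cells at E6.75, which allows a share of up to 0.552%, and in 7.93% at E7.5. That limit is on cells with a transcript at this thinned depth, not on cells that express the gene. Before thinning Aldh1a2 was found in 3 of 543 and 120 of 429 cells. Crabp2 went from 3.68% to 7.46% (38.9% and 42.9% before thinning). Rarg went from 7.37% to 5.36% (62.4% and 44.3% before thinning), and Cyp26a1 from 9.39% to 5.83% (23.8% and 22.4%). Dhrs3 stood at 0.368% and 0.466% after thinning, with 2 cells at each stage, and was found in 80 of 543 and 15 of 429 cells before it, so the thinned share carries no order for this gene. Limits on shares of 0 cover counting error only.

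Most transcripts were thinly spread, but Cyp26a1 and Aldh1a2 were concentrated in few cells. The 10 highest cells held 48.2% of all Cyp26a1 transcripts at E6.75, where 1 cell had 102. For Aldh1a2 at E7.5 the 10 highest cells held 45.8%, and 1 cell had 98. In contrast, the 10 highest cells held 10.1% of the Rarg transcripts at E6.75 and 14.8% at E7.5, and no cell had more than 12.

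At E7.5 the libraries themselves differed in Aldh1a2 and Cyp26a1. Aldh1a2 stood between 53.6 and 152 CPM in libraries 1, 2, 3, 4, 7 and 8, at 15.8 in library 6, and at 0, 8.90, 8.16 and 21.6 CPM in libraries 9, 10, 11 and 12. Library 9 had 15 used cells, so 0 counts allow a level of up to 6.14 CPM. Cyp26a1 stood at 102, 123 and 89.8 CPM in libraries 9, 10 and 11, and between 3.22 and 50.7 CPM in the other 8. In libraries 1 to 8 (without 5), a single cell held up to 73.0% of the Aldh1a2 transcripts, the highest share being in library 8 and the lowest in library 2. The labels give no batch for these libraries.

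The other genes of the retinoid pathway were described by a list of 21 genes, of which 14 could be tested between stages. Of these, 4 were higher and 3 lower at E7.5, and the median log2 difference was 0.38, against 0.03 over all genes tested. Rdh10, which makes retinaldehyde from retinol, rose by 0.78 ± 0.21 (SE, log2, edgeR adjusted p = 0.0052). Rbp4, the retinol carrier of serum and a product of visceral endoderm, fell by 2.57 ± 0.39 (SE, edgeR adjusted p = 2.4e-05), and the receptor gene Rara fell by 1.12 ± 0.24 (SE, edgeR adjusted p = 0.00082). Fabp5, which can also carry retinoic acid, rose by 0.46, and the corepressor gene Ncor1 fell by 0.34.

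A list of 12 genes known to respond to retinoic acid had 6 testable members, and all 6 were higher at E7.5, with a median log2 difference of 4.12. Among them, Hoxb1 rose by 6.92 ± 0.48 (SE), Cdx1 by 4.84 ± 0.76, Meis1 by 3.40 ± 0.48, Meis2 by 3.38 ± 0.42 and Tshz1 by 3.10 ± 0.46. A gene that passes the low-count filter only through E7.5 had to differ, so the count of 6 describes these genes and tests nothing about the list. Each of these genes is also known to have other regulators in the posterior embryo.

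At E6.75, Cyp26a1 was concentrated in cells with visceral endoderm markers, the layer that surrounds the epiblast. Cells with at least 4 of 8 such markers (60 of 543 cells) held 868 of 1523 Cyp26a1 transcripts (57.0%), and 38.2% to 97.2% in a single library. Cyp26a1 in these cells ran from 224 through a median of 476 to 1176 CPM over the 6 libraries. Libraries 1_10, 1_11 and 2_12 had only 4, 3 and 5 such cells, and the highest value, in 1_11, rests on 84 transcripts in 3 cells. In the 471 cells left after also leaving out extraembryonic ectoderm marker cells, it ran from 0.609 through 2.48 to 54.4 CPM, so the sets did not overlap. With extraembryonic ectoderm marker cells counted among the others, those ran from 2.73 to 63.4 CPM, which is still below the visceral endoderm marker cells. Against the 471 cells the log2 difference was 5.08 ± 0.47 (SE, higher in 6 of 6 libraries), in a comparison where 19.4% of 9348 genes were called. Cyp26a1 passed the filter on low counts mainly through the marker cells, so these values are a description with no test.

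Of the other members in visceral endoderm marker cells, Rarg was lower in 6 of 6 libraries, with 20.4 ± 18.1 against 47.6 ± 9.98 CPM (SD, n = 6) and a log2 difference of -0.81 ± 0.28 (SE, edgeR adjusted p = 0.043). That call was lost without library 1_10, 1_11, 2_13 or 2_14, at adjusted p of 0.051 to 0.13. Rarg had 0 counts in the 4 marker cells of library 1_10 and the 3 of library 1_11. Crabp1 (log2 -0.98, edgeR adjusted p = 0.22) and Crabp2 (-0.64, adjusted p = 0.23) did not pass. Dhrs3, tested at the lower filter, was at 11.4 ± 8.58 against 3.75 ± 1.34 CPM (SD; log2 1.40 ± 0.52 SE, edgeR adjusted p = 0.056, with 18.9% of genes called at 5 counts). Aldh1a2 had 0 counts in the 60 cells. Of 12 tested genes of the pathway list, 4 were higher and 2 lower (median log2 0.39, against -0.04 over all genes), among them Rbp4 by 6.21, Rdh10 by 1.66 and Nrip1 by 0.86, with Fabp5 at -0.97 and Adh5 at -0.44. Cyp26a1 was also found in 15 of the 16 cells with at least 3 of 6 extraembryonic ectoderm markers.

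**Figure D2:**
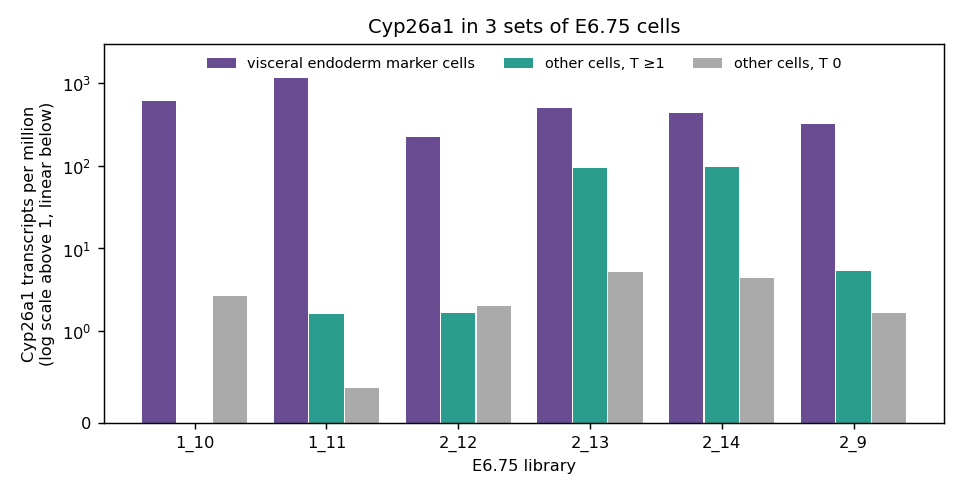
Cyp26a1 in CPM for 3 sets of cells in each of the 6 E6.75 libraries, on an axis that is logarithmic above 1 and linear below. Visceral endoderm marker cells lie between 224 and 1176 in every library, and other cells with a T transcript lie above 90 in libraries 2_13 and 2_14 and at 0 to 5.34 in the other 4. Extraembryonic ectoderm marker cells are left out of the other cells.

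Among the 471 E6.75 cells without these markers, Cyp26a1 was found mainly in libraries 2_13 and 2_14. Those held 261 and 251 of 533 transcripts, at 54.4 and 53.2 CPM. The other 4 libraries held 2 to 8 transcripts each, at 0.609 to 2.89 CPM. These 2 libraries also held the most cells with T, the T-box factor of the primitive streak (45 and 44 cells, against 9 to 16), and with Mesp1, a factor of nascent mesoderm (25 and 16 cells, against 0 to 3). They were also the deepest, at a median of 54686 and 53967 transcripts per cell, against 22331 to 35382 in the other 4. Each of the 2 stood alone on its barcode set. Depth, handling and cell content cannot be told apart here, and their part in the Cyp26a1 level was not tested.

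Cells with T were compared with cells without it within each library, after leaving out the marker cells above. Cyp26a1 in cells with T was at 93.8 and 97.9 CPM in libraries 2_13 and 2_14, against 5.16 and 4.44 CPM without T. In libraries 1_10, 1_11, 2_12 and 2_9 it was at 0, 1.61, 1.67 and 5.34 CPM with T, and at 2.67, 0.376, 1.99 and 1.64 CPM without it. The 2 high libraries carried the difference, and the other 4 had at most 5.34 CPM on either side. Cyp26a1 had too few counts for the usual filter, and also at the lower one without library 2_13 or without 2_14, so these values are a description with no test. DESeq2 did not call it (log2 1.97, adjusted p = 0.68). With visceral endoderm and extraembryonic ectoderm marker cells both kept in, the log2 difference was -0.12 (edgeR adjusted p = 0.97). Dhrs3 at the lower filter, where 3.6% of 10748 genes were called, did not pass (log2 0.54, edgeR adjusted p = 0.66).

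At least 3 cells with Mesp1, the number required for a comparison, were present in libraries 2_13, 2_14 and 2_9, with 44 cells in all against 189 without Mesp1. Library 2_9 had 3 of these cells, and its level rests on 3 transcripts of Cyp26a1 in 1 cell. Cyp26a1 was at 152 and 12.2 CPM with and without Mesp1 in library 2_13, at 166 and 27.8 CPM in library 2_14, and at 12.5 and 1.98 CPM in library 2_9. It was higher in all 3 libraries, by 3.06 ± 0.23 on the log2 scale (SE, edgeR adjusted p = 1.4e-07), in a comparison where 1.3% of 9559 genes were called. Dhrs3 at 5 counts, where 1.48% of genes were called, did not pass (log2 -1.15, edgeR adjusted p = 0.74). The call of Cyp26a1 was lost with cells thinned to 2000 transcripts (log2 4.48, edgeR adjusted p = 0.35) and with visceral endoderm and extraembryonic ectoderm marker cells kept in (0.63, edgeR adjusted p = 0.77). Primitive streak markers summed to 712 to 2110 CPM in cells with Mesp1 and to 347 to 619 CPM in cells without, and their part in the result was not tested. Of the lists, Meis2 (log2 3.53 ± 0.35 SE) and the cofactor gene Nrip1 (1.16 ± 0.26 SE) were higher with Mesp1. Meis2 was the 1 gene of the response list that passed the low-count filter here. Whether it passed only through the cells with Mesp1 was not checked, so its value is a description with no test.

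Crabp2 was lower in E6.75 cells with T, and this was the only member called there at the usual filter (3.8% of 9576 genes were called). With T it ran from 8.54 through a median of 11.8 to 12.6 CPM. Without T it ran from 17.8 through 24.7 to 33.7 CPM, so the sets did not overlap and it was lower in 6 of 6 libraries. Crabp2 fell by 1.13 ± 0.19 on the log2 scale (SE, edgeR adjusted p = 0.00024). The median depth of cells was 59872 transcripts with T and 32890 without, which CPM takes into account. Crabp1 did not pass (log2 -0.10, 95% interval -0.62 to 0.42), and neither did Rarg (-0.30, 95% interval -0.53 to -0.06, edgeR adjusted p = 0.24).

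For Foxa2, a factor of endoderm and of the anterior streak, no member was called at E6.75 at the usual filter (0.55% of 9451 genes). The same held for Sox2, a factor of the epiblast (0.168% of 8931 genes). Of the members tested there, 0 had an unadjusted edgeR p under 0.05, and DESeq2 called 0. At the lower filter, Cyp26a1 was higher with Foxa2 in 4 of 6 libraries only (log2 1.22 ± 0.23 SE, 0.628% of genes called), and DESeq2 did not call it (log2 1.08). With Sox2 it was lower in 4 of 6 libraries (log2 -1.81 ± 0.24 SE, 0.234% of genes called), and DESeq2 did not call it (-1.64, adjusted p = 0.091). For either marker, Cyp26a1 could be fitted in only 4 of the 6 rounds with 1 library left out. These values are therefore a description with no test. Cells without Sox2 were shallow, at a median of 7692 transcripts against 52086. In pooled counts Cyp26a1 stood at 148 CPM in cells with T and no Sox2, at 47.4 with both, at 2.72 with Sox2 alone and at 2.20 with neither. The pooled values rested on few libraries: the median library stood at 96.6 CPM with T and no Sox2 (0 to 340, 4 libraries) and at 4.55 CPM with both (0 to 77.0, 6 libraries). With Sox2 alone it stood at 2.33 CPM (0.406 to 5.70), and with neither at 0 (0 to 6.53), so the 4 classes overlapped.

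At E7.5, Crabp1 and Crabp2 went opposite ways in nascent mesoderm. Crabp1 in cells with Mesp1 ran from 99.0 through a median of 139 to 445 CPM over 11 libraries, and in cells without it from 0 through 25.8 to 74.8 CPM. The sets did not overlap and Crabp1 was higher in 11 of 11 libraries, by 2.24 ± 0.24 on the log2 scale (SE, edgeR adjusted p = 5.5e-07), where 6.25% of 6144 genes were called. Crabp2 ran from 5.76 through 27.8 to 51.4 CPM with Mesp1 and from 3.68 through 40.4 to 103 CPM without, with wide overlap, lower in 9 of 11 libraries. It fell by 0.74 ± 0.19 (SE, edgeR adjusted p = 0.016), a call lost without library 3 (adjusted p = 0.094) and without libraries 9 to 12 (0.063).

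The remaining members in Mesp1 cells were Aldh1a2, Rarg and Cyp26a1. Aldh1a2 ran from 0 through 84.9 to 381 CPM with Mesp1 and from 0 through 14.6 to 123 CPM without, higher in 8 libraries and lower in 2 (log2 1.73 ± 0.36 SE, edgeR adjusted p = 0.0030). DESeq2 did not call it (log2 1.36, adjusted p = 0.32). Rarg was at 17.3 ± 11.5 against 30.7 ± 13.1 CPM (SD; log2 -0.78 ± 0.23 SE, edgeR adjusted p = 0.047), and the call was lost without library 2, 3, 4, 6, 8 or 12, at adjusted p of 0.059 to 0.12. Cyp26a1 did not pass (log2 0.29 ± 0.40 SE, edgeR adjusted p = 0.83), nor did any of 8 tested genes of the pathway list. Of the response list, all 3 tested genes were higher, among them Hoxb1 by 1.95 and Meis2 by 1.38 (list median 1.38, against 0.01 over all genes). Which side let these 3 genes through the filter was not checked, so their count tests nothing about the list.

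Paraxial mesoderm markers moved with Crabp1. Their sum in cells with Mesp1 ran from 133 through 281 to 899 CPM, and in cells without from 15.9 through 64.2 to 145 CPM. Other lists were higher with Mesp1 too, by median: primitive streak (941 against 415 CPM), lateral and extraembryonic mesoderm (461 against 211) and blood and endothelium (101 against 57.6). Epiblast (1556 against 3563 CPM) and definitive endoderm markers (274 against 672) were lower. The part of these lists in the Crabp1 result was not tested. Tcf15, a paraxial mesoderm factor, gave a further split, in which 0.916% of 6007 genes were called. Crabp1 was at 169 ± 91.1 CPM with Tcf15 and 52.2 ± 15.5 CPM without (SD, n = 10), higher in 10 of 10 libraries (log2 1.51 ± 0.23 SE, edgeR adjusted p = 0.0018). With 2 transcripts of Tcf15 required, it was 0.96 (adjusted p = 0.51). With Hand1, a factor of lateral and extraembryonic mesoderm, no member was called (2.73% of 6672 genes), and Crabp1 was at 84.9 ± 13.2 against 72.6 ± 57.4 CPM (SD, n = 10). There 2 members had an unadjusted edgeR p under 0.05 (Crabp1 and Aldh1a2), and DESeq2 called 0. Without libraries 9 to 12, Crabp1 was higher with Hand1 by 0.96 (edgeR adjusted p = 0.0011).

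In cells with Sox2, which at E7.5 marks ectoderm and epiblast, the binding proteins went the reverse way. Crabp1 ran from 0 through 38.1 to 136 CPM with Sox2 and from 81.1 through 109 to 163 CPM without. It was lower in 9 of 10 libraries, by 1.55 ± 0.27 on the log2 scale (SE, edgeR adjusted p = 0.00029), in a comparison where 8.9% of 6098 genes were called. Crabp2 ran from 6.89 through 52.1 to 102 CPM with Sox2 and from 0 through 29.8 to 74.98 CPM without. It was higher in 9 of 10 libraries, by 1.06 ± 0.20 (SE, edgeR adjusted p = 0.00095). Library 12 was the exception for both genes, with Crabp1 at 136 against 90.0 CPM and Crabp2 at 47.1 against 74.98 CPM with and without Sox2. Rarg (log2 0.75, edgeR adjusted p = 0.052), Aldh1a2 (-1.11, 0.14) and Cyp26a1 (-0.93, 0.17) did not pass. Rarg lay close to the threshold, and was called at 0.91 without libraries 9 to 12 (edgeR adjusted p = 0.028), at 0.88 without library 7 (0.036) or library 12 (0.012) and at 0.69 with 2 Sox2 transcripts required (0.042), and also with no filter (0.024), RLE size factors (0.0497) or observed UMIs (0.0499). Aldh1a2 was called at -3.02 with 2 Sox2 transcripts required (edgeR adjusted p = 3.8e-05) at -1.47 without library 8 (0.030) and with no filter (-1.08, 4.6e-08).

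Markers of other cell types moved with Sox2 as well. Epiblast markers summed to 2576 through a median of 3755 to 6038 CPM with Sox2 and to 604 through 1089 to 2156 CPM without. Lateral and extraembryonic mesoderm markers ran from 32.9 through 88.9 to 320.4 CPM with Sox2 and from 69.9 through 616 to 945 CPM without, and paraxial mesoderm markers from 34.2 through 77.9 to 204 CPM and from 107 through 231 to 459 CPM. No marker of these 3 lists was at 0 on either side, and their part in the results was not tested.

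**Figure D3:**
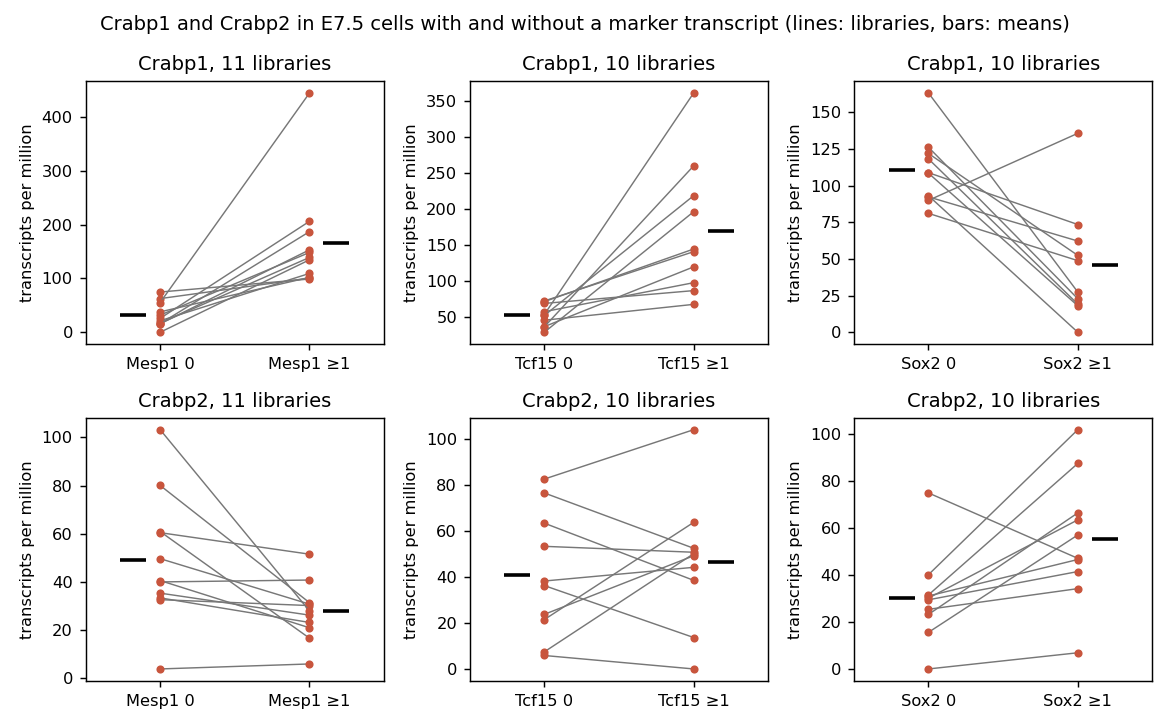
Crabp1 and Crabp2 in E7.5 cells with and without a transcript of a marker gene, in CPM. The markers are Mesp1, Tcf15 and Sox2, each line joins the 2 values of a library, and bars give the means; Crabp1 is higher with Mesp1 in all 11 libraries and lower with Sox2 in 9 of 10, where Crabp2 is higher in 9 of 10.

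Foxa2 at E7.5 gave 1 called member, in a comparison where 2.26% of 6191 genes were called. Crabp1 was at 37.0 ± 45.5 CPM with Foxa2 and 82.4 ± 24.7 CPM without (SD, n = 9), lower in 8 of 9 libraries (log2 -1.0 ± 0.27 SE, edgeR adjusted p = 0.040). That call was lost without library 2, 3, 4, 6, 7, 8 or 11, at adjusted p of 0.054 to 0.20. Cyp26a1 was at 60.1 ± 73.7 against 26.7 ± 25.1 CPM (SD; log2 1.11 ± 0.40 SE, edgeR adjusted p = 0.18). With 2 Foxa2 transcripts required, Cyp26a1 was called at 1.86 (edgeR adjusted p = 0.024), and Crabp2 went from -0.52 (0.34) to -2.07 (0.0058). Definitive endoderm markers summed to 594 through 1386 to 2099 CPM with Foxa2 and to 267 through 357 to 654 CPM without. By median, node and notochord (152 against 11.5 CPM) and primitive streak markers (864 against 524) were also higher with Foxa2. Lateral and extraembryonic mesoderm (55.8 against 379 CPM), paraxial mesoderm (89.3 against 169) and blood and endothelium markers (40.8 against 176) were lower. The part of these lists in the results was not tested. In pooled counts, cells with both Mesp1 and Foxa2 (12 cells) had 163 CPM of Crabp1, against 17.2 CPM in the 47 with Foxa2 alone.

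Aldh1a2 at E7.5 was found mostly in cells with Hoxb1, a Hox gene of the posterior embryo. Cells with Hoxb1 held 777 Aldh1a2 transcripts and cells without it held 28. The libraries ran from 0 through 75.2 to 397 CPM with Hoxb1 and from 0 through 1.98 to 16.6 CPM without. Aldh1a2 was higher in 10 of 11 libraries, and library 9 had none in either set. Aldh1a2 had too few counts for the usual filter. At 5 counts, where 3.47% of 8002 genes were called, it entered mainly through the cells with Hoxb1, so these values are a description with no test.

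Other markers sorted Aldh1a2 less cleanly. With T it ran from 0 through 62.0 to 183 CPM, and without T from 0 through 2.74 to 147 CPM, higher in 10 of 11 libraries. It could be fitted only at 5 counts (2.18% of 7609 genes called), mainly through the cells with T, and no test is given for it. At the usual filter, no member was called with T (2.2% of 5763 genes), 0 had an unadjusted edgeR p under 0.05, and DESeq2 called 0. That filter left out Cyp26a1 as well, which at 5 counts was at 49.2 ± 37.8 against 23.1 ± 34.3 CPM (SD, n = 11). It was higher with T in 8 of 11 libraries but did not pass (log2 0.97 ± 0.32 SE, edgeR p = 0.0048, adjusted p = 0.14). Cyp26a1 was called without library 1 (edgeR adjusted p = 0.023) or 10 (0.045), and with no filter (0.0011). With Otx2, a factor of the anterior embryo, Aldh1a2 was at 21.0 ± 12.4 CPM, against 116 ± 130 CPM without (SD, n = 11). It was lower in 7 libraries and higher in 3, by a log2 difference of -2.22 ± 0.38 (SE, edgeR adjusted p = 0.00063, 3.51% of 6217 genes called), which DESeq2 did not call (-1.76, adjusted p = 0.27). Lateral and extraembryonic mesoderm markers ran from 37.1 through 160 to 372 CPM with Otx2 and from 69.3 through 578 to 1359 CPM without, and their part in the result was not tested. Cyp26a1 went the other way with Otx2, at log2 1.16 ± 0.49 (SE), but did not pass (edgeR adjusted p = 0.28). Without library 10 it was called, at 2.12 (edgeR adjusted p = 0.00025).

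**Figure D4:**
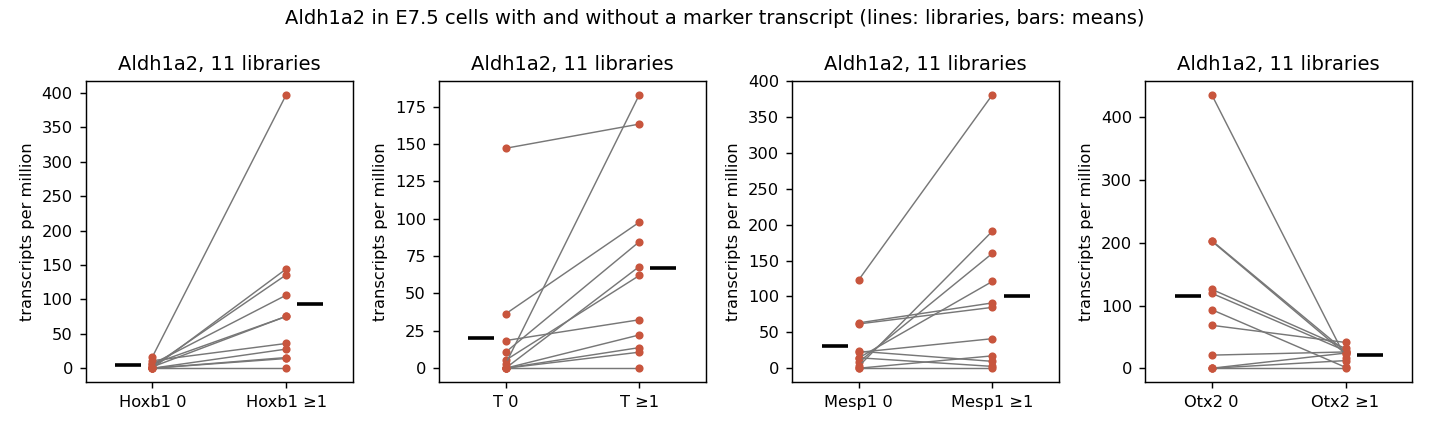
Aldh1a2 in E7.5 cells with and without a transcript of a marker gene, in CPM. The markers are Hoxb1, T, Mesp1 and Otx2, each line joins the 2 values of a library, and bars give the means; with Hoxb1 10 of 11 libraries rise and none falls, and the high line is library 4.

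The cells with Hoxb1 held more paraxial mesoderm marker transcripts (55.9 through 237 to 454 CPM, against 13.9 through 34.4 to 187) and primitive streak transcripts (276 through 1022 to 1602 CPM, against 27.7 through 195 to 1040). Lateral and extraembryonic mesoderm markers were also higher with Hoxb1, at a median of 506 against 155 CPM. Epiblast markers (median 1958 against 3713 CPM) and definitive endoderm markers (238 against 705 CPM) were lower, and the ranges of all these lists overlapped. The part of these lists in the Aldh1a2 result was not tested. Crabp1 was higher with Hoxb1 too (93.4 ± 39.2 against 52.0 ± 44.2 CPM, SD, n = 11; log2 1.08 ± 0.30 SE, edgeR adjusted p = 0.042, 3.62% of 6185 genes called at the usual filter). Without library 2, 3, 4, 7, 8, 10, 11 or 12 that call was lost, at adjusted p of 0.070 to 0.13. At 5 counts, a filter chosen after seeing the data, Rdh10 was higher with Hoxb1 by 1.26 ± 0.32 (SE, edgeR adjusted p = 0.028). Aldh1a2 with Hoxb1 carries no test, so the 2 genes are not read together.

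Classes of 2 markers gave pooled values without a test. Aldh1a2 stood at 61.3 CPM in cells with T and Sox2 (103 cells), 72.7 CPM with T alone (174 cells), 6.45 CPM with Sox2 alone (83 cells) and 112 CPM with neither (60 cells). Among cells with neither, the libraries ran from 0 to 785 CPM with a median of 8.28, so the pooled value came from few libraries. Crabp2 stood at 66.3 CPM with T and Sox2 and 64.9 CPM with Sox2 alone, against 25.4 CPM with T alone. Cyp26a1 stood at 52.3 CPM pooled with T alone, where the median library was at 28.9 CPM and the highest at 384, and the median library with T and Sox2 was at 29.0 CPM, so no order is read from these classes.

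**Figure D5:**
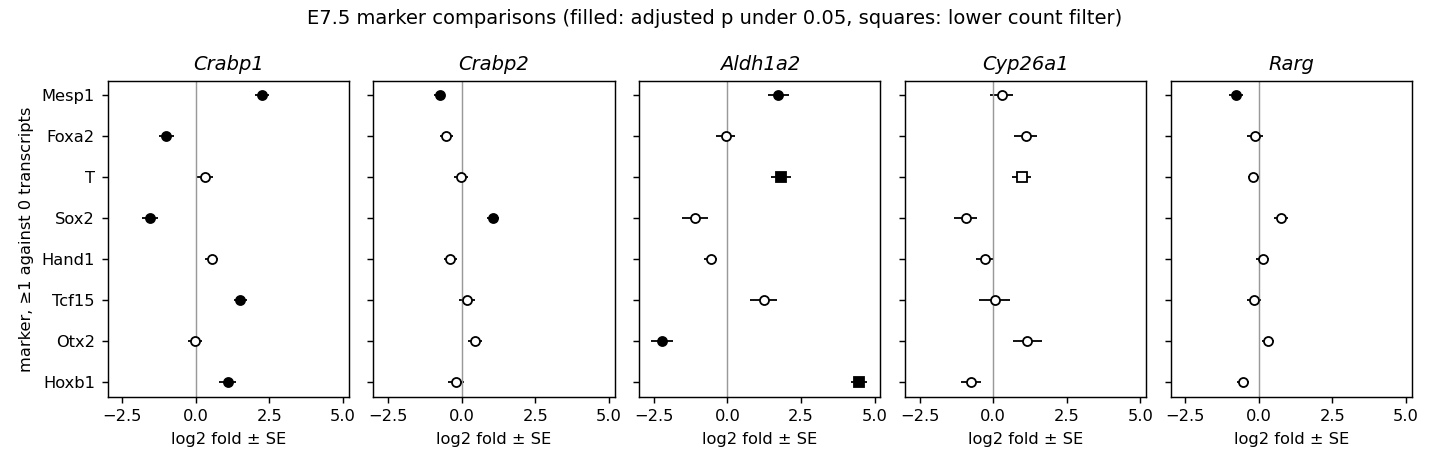
Log2 fold differences with standard errors of 5 retinoid genes (all but Dhrs3) between E7.5 cells with and without each of 8 marker genes, with filled points under the threshold of 0.05 and squares from the lower filter, which are shown as a description. Crabp1 lies to the right for Mesp1, Tcf15 and Hoxb1 and to the left for Sox2 and Foxa2, and Aldh1a2 lies farthest right for Hoxb1 and farthest left for Otx2.

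The difference between cells with and without a marker was also compared between the stages, as an arm by stage interaction. For Mesp1, where 0.365% of 8210 genes were called, Cyp26a1 differed by -2.72 ± 0.61 (SE, edgeR adjusted p = 0.035): it was higher with Mesp1 at E6.75 and at 47.3 ± 55.9 against 27.9 ± 15.2 CPM (SD, n = 11) at E7.5. That call was lost without E6.75 library 2_13 or 2_14, or E7.5 library 2, 4 or 9, at adjusted p of 0.051 to 0.58. It was also lost with visceral endoderm and extraembryonic ectoderm marker cells kept in (-0.52) and in DESeq2 (-3.39, adjusted p = 0.73). For T the interaction of Cyp26a1 was -2.49 ± 0.61 (SE, edgeR adjusted p = 0.052, 0.475% of 8208 genes called). Its E6.75 side was carried by libraries 2_13 and 2_14, as described above. With 1 library left out, its edgeR adjusted p ran from 0.0082 to 0.72, and 8 of 17 such fits called it. No member was called for T, Foxa2 (0.98% of genes) or Sox2 (2.22%), where edgeR's unadjusted p was under 0.05 for 2, 1 and 1 members, and DESeq2 called 0. Dhrs3 had too few counts for any marker test within E7.5 or between stages by marker, and Aldh1a2 for any within E6.75.

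Across the 429 cells of E7.5, the genes most like each member were named by Pearson's r of log2(counts per 10000 + 1), centred on the library mean. These are descriptions over cells that share libraries and depth. Aldh1a2 was most like Hoxb1 (r = 0.65), Tbx6 (0.54) and Meox1 (0.51), and Crabp1 was most like Twist1 (0.56), Foxc2 (0.55) and Dusp9 (0.53). Crabp2 reached 0.35 with Sox3, 0.32 with Tubb4a and 0.30 with Tfap2a, and Cyp26a1 reached 0.37 with Lhx1, 0.30 with Upp1 and 0.30 with Cer1. Rarg stayed at or below 0.29 (Nme3, Slc22a17 and Usp39), and Dhrs3, found in 15 of the cells, was not searched. Between members the values were small: 0.23 for Aldh1a2 and Crabp1, -0.10 for Aldh1a2 and Cyp26a1, and -0.06 for Crabp1 and Crabp2. Of 420 E7.5 cells, 120 had Aldh1a2, 91 had Cyp26a1 and 18 had both, where the libraries' shares would give 22.9.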

How the data were processed

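The values are expected counts that the authors made from k observed molecular identifiers (UMIs) as −K ln(1 − k/K) with K = 4096 before they were deposited, a form that every nonzero value fitted to within 4.09e-12, with 192 barcode columns per library and 96 used. The tables were not depth-normalised. bcl2fastq 2.17.1.14 and BWA 0.6.2-r126 are named in the submitters' processing notes; build, gene models, counting tool and strand handling are not given in the sources used here, so reads of Aldh1a2 and of genes antisense to it cannot be told apart. No doublet caller was run on these picked or sorted cells.

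For each library the 96 used columns were found from the transcripts they held (at least 96.7% of the library), and cells with at least 2000 nuclear transcripts were summed per library and, in marker comparisons, per arm: with at least 1 transcript of the marker, or none. Cells with 4 of 8 visceral endoderm or 3 of 6 extraembryonic ectoderm markers were left out of marker comparisons and kept between stages. Libraries needed 10 cells, and arms 3. Expected counts were rounded and tested with edgeR 4.0.16 in R 4.3.3 (quasi-likelihood F test, TMM, filterByExpr at 10 counts, library as a block in marker comparisons, Benjamini-Hochberg over all genes), checked on simulated data. Alternatives were DESeq2 1.42.0, RLE size factors, no filter, 10000 transcripts per cell, thinned cells, observed UMIs, 2 marker transcripts, the reverse treatment of extraembryonic cells, E6.75 libraries titled 2_ only, and each library left out. A filter at 5 counts and leaving out E7.5 libraries 9 to 12 were added after seeing the data.

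Members, lists and tests were chosen with earlier results of these data known. Named genes were the 6 members in every comparison, up to 6 called genes of smallest adjusted p in each of 2 lists (21 pathway and 12 response genes) (some list genes are not reported here), and the 3 genes of highest correlation (at least 0.2) for members in at least 10% of E7.5 cells, among genes in at least 5%. Promoters are from RefSeq tables of GRCm38.p6.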

Additional observations from a re-analysis of the deposited data

Results flagged for a closer look

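Among the 101 sets of library values examined for a single library far from the others, 15 had one. The cut-off gives about 1 in 20 by chance for independent, normally spread sets. These sets share cells and some hold mostly values of 0, so that rate does not apply here. Of the 15, 7 were Aldh1a2 at E6.75, where the value stands for 1 or 2 transcripts: library 1_10 stood at 0.661 CPM over all cells, 0.782 in cells without Foxa2, 0.891 without T, 3.65 without Sox2 and 0.690 outside visceral endoderm and extraembryonic ectoderm marker cells, and library 2_13 at 0.481 with Foxa2 and 0.375 with T.

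At E7.5, Aldh1a2 in library 4 stood at 536 CPM in cells without Sox2 (next library 174) and at 136 CPM without Tcf15 (next 72.6). Cyp26a1 in library 10 stood at 261 CPM without Sox2 (next 113) and at 121 CPM without Tcf15 (next 53.7), and in library 9 at 196 CPM with Tcf15 (next 74.4). Crabp1 in library 12 stood at 141 CPM with Foxa2 (next 67.1). Dhrs3 stood at 8.55 CPM with Sox2 in library 6 (2 counts, next 3.98) and at 6.84 CPM with Tcf15 in library 2 (3 counts, next 0).

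The difference in Cyp26a1 between cells with and without Mesp1 was not the same at the 2 stages in the interaction term (log2 -2.72, edgeR adjusted p = 0.035). The call was lost with visceral endoderm and extraembryonic ectoderm marker cells kept in (-0.52), in DESeq2 (-3.39, adjusted p = 0.73), with cells of at least 10000 transcripts (-2.66, edgeR adjusted p = 0.16) and with 2 Mesp1 transcripts required (-2.74, 0.13). It was also lost without E6.75 library 2_13 (edgeR adjusted p = 0.58) or 2_14 (0.13) and without E7.5 library 2 (0.076), 4 (0.051) or 9 (0.059).

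Transcripts outside the analysed cells were few. In unused barcode columns there were 5 of Cyp26a1 and 5 of Rarg at E6.75, and 13 of Crabp1, 6 of Crabp2 and 11 of Cyp26a1 at E7.5. In used barcodes under 2000 transcripts there were 4 of Cyp26a1 at E6.75, and 31 of Crabp1, 8 of Crabp2, 5 of Aldh1a2, 8 of Cyp26a1 and 6 of Rarg at E7.5.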

How the results depend on the processing

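Of 91 member values tested, 25 were called, and the share of all genes called ran from 0.168% to 38.8% by comparison at the usual filter. The 25 include values described above without a test. In every alternative that tested them, 12 kept their call and direction, among them Crabp1, Crabp2 and Rarg between stages, and 13 lost it in at least 1. The 12 also include Aldh1a2 and Dhrs3 between stages, Aldh1a2 with T and with Hoxb1 at E7.5, and Cyp26a1 in visceral endoderm marker cells. Those entered only or mainly through their higher side, so a kept call carries no weight for them. Another 17 member values could not be tested. All marker fits already block on library, so the replicate block is the main design; no paired analysis between stages was possible because their libraries share no replicate. The values below are numbers of members called, with the main number first, and apart from thinning the cause was not tested. Thinning to 2000 transcripts left 1 member testable between stages, where it gave 1 for 4, 1 with Mesp1 at E6.75, where Cyp26a1 lost its call (log2 4.48, edgeR adjusted p = 0.35) and it gave 0 for 1, and 1 in visceral endoderm marker cells, where it gave 1 for 2. No member could be tested elsewhere after thinning, so 0 there (for 4 with Mesp1 at E7.5, 2 with Sox2 at E7.5, and 1 with Foxa2 at E7.5, T at E6.75, Otx2, Hoxb1 and Mesp1 by stage) shows no lost call. Keeping visceral endoderm and extraembryonic ectoderm marker cells in gave 0 for Mesp1 at E6.75, Mesp1 by stage and Hoxb1, and 1 for 0 with Foxa2 and Sox2 at E6.75. It reversed Cyp26a1 with T at E6.75 (-0.12, edgeR adjusted p = 0.97). Requiring 2 marker transcripts gave 2 with Mesp1 at E6.75, 3 with Foxa2 at E7.5, 4 with Sox2 at E7.5, 0 with Mesp1 by stage, 1 with Foxa2 and T by stage and 2 with Hoxb1. Without libraries 9 to 12 it was 2 for Mesp1 at E7.5, 1 for T at E7.5, Sox2 by stage and Hand1, and 2 for Otx2 and Hoxb1. No filter, where the fit shares 1 spread over nearly all genes, gave 1 for Foxa2 and Sox2 at E6.75 and Sox2 by stage, 2 for Foxa2 at E7.5, T at both stages, Mesp1 and T by stage, Hand1, Tcf15 and Otx2, 3 for Hoxb1 and 5 for Sox2 at E7.5. Cells of at least 10000 transcripts gave 1 for Foxa2 at E6.75, 0 for Foxa2 at E7.5 and Mesp1 by stage, and 1 for visceral endoderm. The E6.75 libraries titled 2_ gave 1 for Foxa2, Sox2, T by stage and visceral endoderm, and 2 for T. At 5 counts it was 1 for Foxa2 and Sox2 at E6.75, T at E7.5 and T by stage, and 2 for T at E6.75 and Hoxb1. DESeq2 gave 0 for Mesp1 by stage, Otx2 and Hoxb1. With 1 library left out the numbers ran from 0 to 1 for Foxa2 at both stages, Hoxb1, Sox2 at E6.75 and T by stage, 1 to 4 for Mesp1 at E7.5, 0 to 2 for Mesp1 by stage, 1 to 2 for Otx2 and visceral endoderm, and 2 to 3 for Sox2 at E7.5. Small libraries of 15 cells and the low counts of Dhrs3 and, at E6.75, Aldh1a2 limit what could be tested.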
